A study of Homo sapiens with 16 samples.

Results

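This report describes the cytoplasmic ribosomal protein genes, the genes for the proteins of the ribosome that translates nuclear mRNA. Members were the rows of the count table named RPL or RPS with digits and then nothing, an A or an X, together with RPLP0, RPLP1, RPLP2 and RPSA, and processed pseudogenes were left out. This gave 77 genes of 58721 in the table, 31 of the small (40S) subunit and 46 of the large (60S) subunit. RNA was measured by 3' mRNA sequencing in 16 libraries of human bladder cancer cells. RT112, a luminal line grown in RPMI with serum, and SCaBER, a basal line grown in DMEM with serum, were each transfected with 10 nM of 1 of 4 small interfering RNAs (siRNAs). Of these, siFOXA1.1 and siFOXA1.2 target FOXA1, a forkhead transcription factor of luminal urothelial cells, while siControl.1 and siControl.2 served as controls. Each siRNA had 2 libraries per line, numbered as experiment batches 1 and 2. Line and medium cannot be told apart, no untransfected cells were included, and the labels do not say whether replicates were separate cultures, so the p-values measure only the spread between these libraries, which may be technical.

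A human ribosome is built of ribosomal RNA and many proteins, most present in a single copy, and cells keep the output of the many unlinked protein genes in balance. Their mRNAs are short and abundant, and most begin with a C followed by an unbroken run of C and T bases, the terminal oligopyrimidine (TOP) tract, through which the kinase mTOR and the RNA-binding protein LARP1 control their translation and stability. Transcription of the same genes rises with growth signals such as MYC, and proteins made in excess of ribosome assembly are degraded, with RPL5 and RPL11 the best known for a role outside the ribosome, as inhibitors of MDM2 and so activators of p53.

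Library totals ranged from 4528513 to 7604581 counts. FOXA1 in RT112 stood at 35.0 and 29.4 CPM (counts scaled to 1 common library total) under siControl.1, 18.2 and 28.4 under siControl.2, 1.32 and 3.24 under siFOXA1.1 and 9.18 and 16.0 under siFOXA1.2. It fell under siFOXA1.1 (log2 fold change -3.44 ± 0.47 SE, adjusted p = 2.19e-05), and under siFOXA1.2 its change of -1.10 ± 0.39 SE, adjusted p = 0.205 did not pass the test. In SCaBER FOXA1 lay between 0 and 2.43 CPM in the 8 libraries and was too low to be tested. Summed luminal markers were at 630.4 to 1525 CPM in RT112 and summed basal markers at 1750.2 to 3194 CPM in SCaBER, and of 4 leukocyte markers 3 were at 0 counts in every library. No pair of replicates was a repeat of 1 library: their counts differed by 8.56 to 36.8 times the sampling noise (chi-square per degree of freedom), most in SCaBER siFOXA1.1.

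The TOP tract is the sequence feature these genes are known for, so starts of members from both ends of the fold changes in RT112 under siFOXA1.1 are shown first. Each line holds 10 bases before and 20 bases from the RefSeq transcript start on (GRCh38.p14, sense strand), and capitals mark the unbroken run of C and T bases through the start base, which is position 11. Among members with 1 start in the RefSeq table and a mean of at least 20 counts, the 5 with the lowest fold changes were RPL12 (chr9:127451387-127451416, minus strand), RPS6 (chr9:19380217-19380246, minus), RPL14 (chr3:40457329-40457358, plus), RPL28 (chr19:55385922-55385951, plus) and RPS4X (chrX:72277229-72277258, minus).
RPL12: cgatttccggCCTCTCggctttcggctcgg
RPS6: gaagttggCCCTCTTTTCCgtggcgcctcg
RPL14: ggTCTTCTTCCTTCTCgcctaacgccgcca
RPL28: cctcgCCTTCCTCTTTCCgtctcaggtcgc
RPS4X: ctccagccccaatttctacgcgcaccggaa
The next 5 had the highest fold changes among the members kept for display, and none passed the test. They were RPL38 (chr17:74203668-74203697, plus), RPS29 (chr14:49598691-49598720, minus), RPS27 (chr1:153990752-153990781, plus), RPL22 (chr1:6199576-6199605, minus) and RPL35A (chr3:197950180-197950209, plus).
RPL38: aagtctcgTTCTTTTTCgtccttttccccg
RPS29: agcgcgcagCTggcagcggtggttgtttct
RPS27: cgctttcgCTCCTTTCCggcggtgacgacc
RPL22: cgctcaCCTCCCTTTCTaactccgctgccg
RPL35A: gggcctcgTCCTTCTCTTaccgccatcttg
In both sets 4 of the 5 starts carried a C at the start base followed by at least 4 C or T bases, and the exceptions were RPS4X, whose listed start is an A, and RPS29, whose listed start is a T. Some members were left out of both sets beforehand by their place in the genome. RPL30, the 1 member that rose, was among them, so the lack of a passed rise in the second set is no result. Over all members, 62 of 77 had a start in the table. On the sense strand, 46 of these 62 (74.2%) had such a start, against 1404 of 27305 genes in the table (5.14%). The 5-letter word CTTTC, which overlaps many of these tracts, lay in the same 30 bases of 33 members (53.2%) and of 5.29% of all genes, while its reverse complement GAAAG lay in 2 members (3.23%). Of the members that fell in RT112 under siFOXA1.1, 23 of 33 with a listed start (69.7%) had the C and tract, and of the tested members that did not fall 23 of 29 (79.3%) had it. Members with and without a listed TOP start were thus found on both sides of the test, and the table gives annotated starts, not starts measured in these cells.

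The members took 6.78% to 7.58% of all counts in the 4 control libraries of RT112 and 8.94% to 10.1% in those of SCaBER. With genes of mitochondrial DNA, which took more counts in RT112, left out of the totals, these ranges were nearer, at 8.61% to 9.24% and 10.1% to 11.4%. In RT112 the share was 7.07% ± 0.40 (SD, n = 2) under siControl.1, 7.32% ± 0.36 under siControl.2, 5.18% ± 0.16 under siFOXA1.1 and 7.94% ± 0.21 under siFOXA1.2. The siFOXA1.1 libraries, at 5.29% and 5.07%, lay below all 4 controls, and the siFOXA1.2 libraries, at 8.08% and 7.79%, above all 4. In SCaBER the share was 9.18% ± 0.34 under siControl.1, 9.99% ± 0.22 under siControl.2, 7.85% ± 0.49 under siFOXA1.1 and 9.09% ± 0.63 under siFOXA1.2. There too the siFOXA1.1 libraries, at 8.19% and 7.51%, lay below all controls, whereas the siFOXA1.2 libraries, at 9.53% and 8.65%, overlapped them. Relative to the mean of the 4 controls, the share under siFOXA1.1 was 72.0% ± 2.21 in RT112 (70.9% within batch 1 and 73.2% within batch 2) and 81.9% ± 5.06 in SCaBER (85.8% and 78.0%). Under siFOXA1.2 it was 110.3% ± 2.92 in RT112 (108.3% and 112.5%) and 94.8% ± 6.55 in SCaBER (99.9% and 89.8%). Counts from genes of mitochondrial DNA moved with the result under siFOXA1.1 in both lines, at 25.7% and 28.2% of counts against 18.0% to 21.2% in the RT112 controls and at 11.9% and 11.9% against 10.3% to 11.4% in the SCaBER controls. With those genes taken out of the totals, the share under siFOXA1.1 was 79.3% of the control mean in RT112 and 83.0% ± 5.12 in SCaBER. As a sum over chosen genes the share was not tested. A share cannot tell less RNA of the members from more RNA of other genes. In bulk RNA a change in all cells and a change in some cells cannot be told apart.

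**Figure D1:**
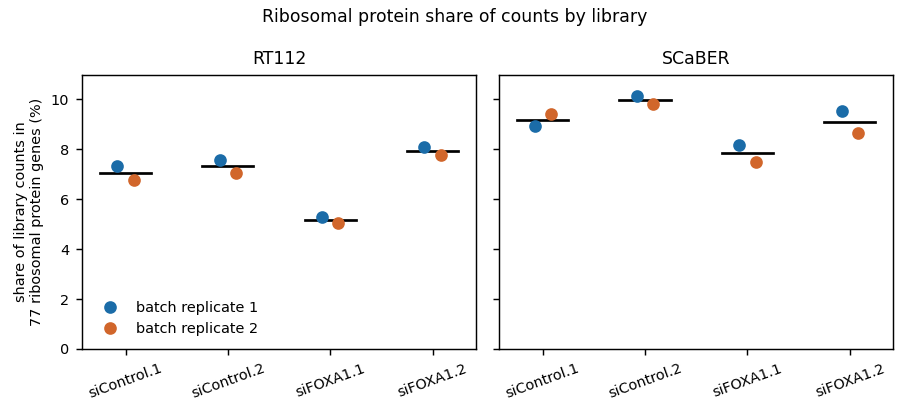
Share of all counts in the 77 ribosomal protein genes (percent of library counts, y axis) for each siRNA (x axis) in RT112 (left) and SCaBER (right); each point is 1 library, coloured by experiment batch, and each bar is the mean of the 2 libraries. In both lines the siFOXA1.1 libraries lie below all 4 control libraries, and only in RT112 do the siFOXA1.2 libraries lie above them.

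The counts were spread widely among the members. By mean CPM, 34 members stood among the 100 genes with the most counts, and 72 of 77 had at least 100 CPM. RPL37A, RPL5, RPS27A, RPLP1 and RPS2 held 21.2% of member counts together. RPS27A is made as a fusion of ubiquitin with a ribosomal protein, and RPLP1 is an acidic protein of the stalk that recruits elongation factors. Per length, in the deposited TPM, the order was another, with RPS21 first at a mean of 4077 TPM, RPS12 at 3946 and RPS27 at 2583. At the other end, RPL17 was listed at 0 to 22 counts per library, and RPS10, RPS9 and RPL36A were below 100 CPM. All encode core ribosomal proteins, and rows of readthrough transcripts named after RPL17, RPS10 and RPL36A were at 0 counts in every library. The small-subunit members held 44.1% to 45.0% of member counts in the RT112 controls and 43.7% and 43.0% under siFOXA1.1. In the SCaBER controls they held 42.3% to 42.9%, and under siFOXA1.1 41.1% and 39.3%. The small-subunit portion was thus lower under siFOXA1.1 than in every control of the same line. RPS2, itself a small-subunit member, gave 7.98% of the lower share of counts in RT112 and 16.0% in SCaBER. The portion without RPS2 was not computed, so a shift across the small subunit was not shown.

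In RT112, the mRNAs of most ribosomal protein genes were lower under siFOXA1.1 than under the controls. Of the 76 members tested 41 fell and 1 rose, against 17.0% of all 11986 genes that fell and 15.6% that rose. Scaled by library totals alone 54 fell and 0 rose, and on the TPM scale 60 fell and 0 rose, with the median of all genes at -0.14 and -0.29. The median gene thus also shifted down in these scalings, and the larger counts are not read as a result about the members. The median log2 fold change of the members was -0.32 in the main scaling, against -0.01 over all genes, and 64 members lay below 0. Of the 41, 20 fell by under 0.5 on the log2 scale and 3 by over 1. In the small subunit 16 of 30 tested fell (median -0.37), and in the large subunit 25 of 46 fell and 1 rose (median -0.31). Both siFOXA1.1 libraries lay below all 4 controls for 45 members, where 24.3% of all genes did so. Within batch 1 the median was -0.38 and 65 members lay below 0, and within batch 2 it was -0.25 and 62 did. The higher share of mitochondrial counts moved with this result, and with mitochondrial genes left out of the fit 41 members again fell. The main scaling (TMM factors) already trims extreme genes, so leaving these out could hardly change the count, and no conclusion is drawn from it.

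RPS2, a small-subunit protein and a partner of the methyltransferase PRMT3, showed the largest fall. Its mRNA was at 1975 and 2165 CPM under siControl.1, 2068 and 2037 under siControl.2, 2364 and 2162 under siFOXA1.2 and 514 and 391 under siFOXA1.1. The siFOXA1.1 libraries stood far below the other 6, which did not separate by siRNA (log2 fold change -2.06 ± 0.10 SE, adjusted p = 2.27e-10). RPS2 gave 0.161 of the 2.02 percentage points by which the share was lower, or 7.98% of it, and the abundant RPL37A and RPLP1 gave 0.141 and 0.119 points. RPL12, which sits at the base of the stalk, was at 605 and 565 CPM under siControl.1, 684 and 589 under siControl.2 and 231 and 238 under siFOXA1.1, with no overlap (-1.25 ± 0.11 SE, adjusted p = 1.86e-07). RPS6, the protein whose phosphorylation by S6 kinases is a common readout of mTOR activity, was at 1792 and 1534 CPM, 1728 and 1480.1 and 699.6 and 714 in the same order (-1.07 ± 0.10 SE, adjusted p = 1.81e-07). RPL14, a large-subunit protein, was at 508 to 610.0 CPM in the controls and at 258 and 244 under siFOXA1.1 (-0.96 ± 0.11 SE, adjusted p = 2.8e-06). RPL10, which joins the large subunit last and carries recurrent mutations in T-cell leukaemia, was at 677 to 809.8 CPM in the controls and at 383 and 338 under siFOXA1.1 (-0.94 ± 0.10 SE, adjusted p = 1.2e-06). For each of these genes both siFOXA1.1 libraries lay below every other RT112 library.

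Several other members are known for roles or copies outside the ribosome's core work. RPS4X, whose X-linked gene escapes X inactivation, fell by 0.81 (SE 0.12, adjusted p = 4.27e-05), and RPSA, also known as the precursor of a laminin receptor, fell by 0.78 (SE 0.10, adjusted p = 1.43e-05). Of the stalk proteins, RPLP1 was at 2612 to 3069 CPM in the controls and 1589 and 1649.9 under siFOXA1.1 (-0.65 ± 0.07 SE, adjusted p = 2.44e-06), whereas RPLP2, its dimer partner, was at 902 to 1040.2 CPM and 785 and 873 and its change of -0.08 ± 0.10 SE, adjusted p = 0.553 did not pass the test. RPLP1 and RPLP2, made for 1 complex, thus differed in whether they passed, although the difference between them was not tested. On the TPM scale RPLP2 was lower too (-0.41, limma adjusted p = 0.0118), but there the median gene also shifted down. Of the proteins that bind MDM2, RPL5 had a change of -0.17 ± 0.09 SE, adjusted p = 0.167 and RPL11 of 0.18 ± 0.10 SE, adjusted p = 0.165, and neither passed. RPS27A (-0.21 ± 0.09 SE, adjusted p = 0.0729), RPL41, the smallest protein of the ribosome (-0.19 ± 0.11 SE, adjusted p = 0.224), and RPL22, which binds a viral RNA and is recurrently mutated in cancers with mismatch repair defects (0.11 ± 0.13 SE, adjusted p = 0.566), did not pass either. The 1 member that rose was RPL30, also a factor for selenocysteine incorporation. It stood at 1201 and 1149 CPM under siControl.1, 1178 and 1407 under siControl.2 and 1393 and 1443 under siFOXA1.1 (0.34 ± 0.09 SE, adjusted p = 0.0052), and 1 siControl.2 library reached the level of the siFOXA1.1 libraries. Its rise was not called on library totals (0.20, adjusted p = 0.0798) or on the TPM scale (0.02, adjusted p = 0.908). In both of these scalings the median gene shifted down.

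**Figure D2:**
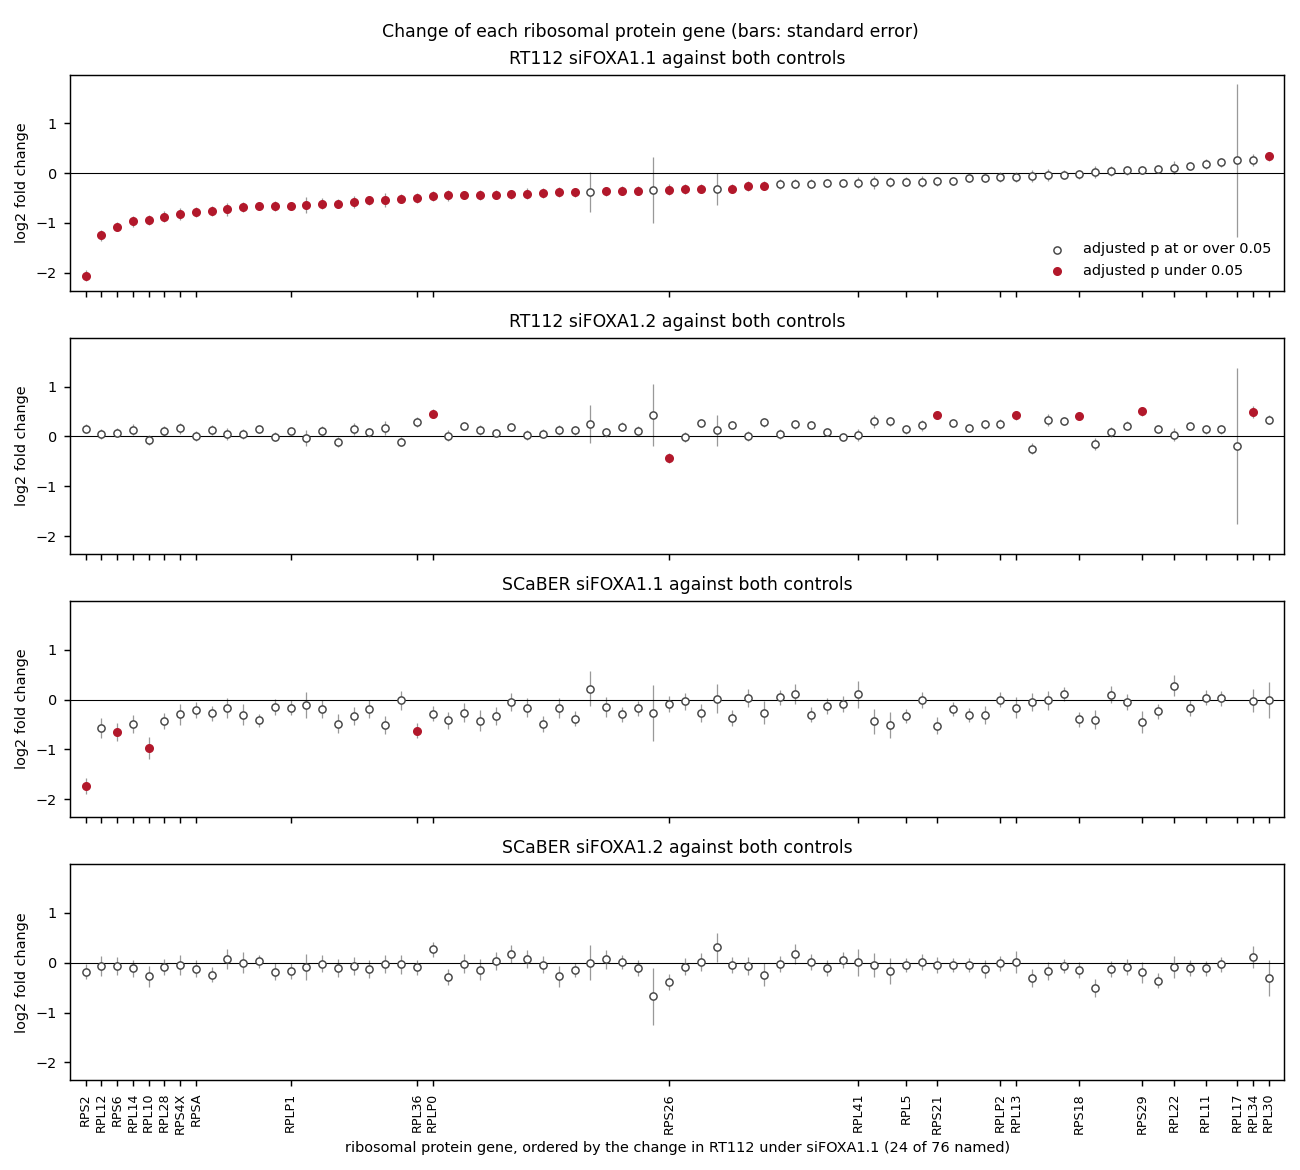
Log2 fold change (y axis, bars are standard errors) of each ribosomal protein gene tested under each FOXA1 siRNA against both controls in RT112 (upper panels) and SCaBER (lower panels), with the genes on the x axis (some of them named) ordered by the change in RT112 under siFOXA1.1; filled points have an edgeR adjusted p under 0.05. Under siFOXA1.1 the filled points below 0 number 41 for RT112 and 4 for SCaBER, and under siFOXA1.2 they number 1 and 0.

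With siFOXA1.2 few RT112 members passed, and most of those that did were higher than in the controls. The test called 6 higher and 1 lower of 76, against 1.04% of all genes higher and 1.0% lower, and the median was 0.14 against 0.01 over all genes. Within batches 1 and 2 the medians were 0.13 and 0.17, and both siFOXA1.2 libraries lay above all 4 controls for 26 members, as they did for 9.63% of all genes. RPS29 was at 1199.9 and 1035 CPM under siControl.1, 1214 and 1314 under siControl.2 and 1649 and 1679.7 under siFOXA1.2 (0.51 ± 0.09 SE, adjusted p = 0.00374). RPS21 was at 2150.0 and 1837, 2427 and 2198 and 2855 and 2831 CPM in the same order (0.42 ± 0.09 SE, adjusted p = 0.0115), and RPS18 at 1114 and 1016, 1120.4 and 1142 and 1423 and 1469.7 CPM (0.42 ± 0.08 SE, adjusted p = 0.00856). In these 3 small-subunit genes the siFOXA1.2 libraries stood above every control. RPL34 (0.48 ± 0.12 SE, adjusted p = 0.0456) and RPL13 (0.42 ± 0.09 SE, adjusted p = 0.0243) also rose, but their siFOXA1.2 levels of 297 and 287 and 1077 and 995 CPM were near those under siControl.2, at 279 and 241 and 1008 and 885 CPM. RPS26, a small-subunit protein near the exit of the mRNA and mutated in Diamond-Blackfan anaemia, was the 1 that fell, from 477 to 598 CPM in the controls to 407 and 371 (-0.44 ± 0.10 SE, adjusted p = 0.0317). It fell under siFOXA1.1 too, by 0.33 (SE 0.10, adjusted p = 0.0184). These calls rested on few libraries, since without either siFOXA1.2 library 0 members passed and without siControl.1 replicate 2 only RPS29 did.

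Set directly against siFOXA1.2, siFOXA1.1 gave lower levels for 54 of 76 members and higher for 0 in RT112, against 15.1% of all genes lower and 13.0% higher, with a median of -0.47. RPS2 (-2.21 ± 0.11 SE, adjusted p = 1.99e-09), RPL12 (-1.29 ± 0.12 SE, adjusted p = 6.7e-07) and RPS6 (-1.15 ± 0.11 SE, adjusted p = 5.03e-07) again led. When both FOXA1 siRNAs were pooled and set against both controls, as the study's own design does, 0 of 76 members passed in RT112 by edgeR and 0 by DESeq2, with 2 at an unadjusted p under 0.05 by each, and 0.108% of all genes were called. The median was then -0.08, between those of the separate siRNAs.

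The controls differed from each other in some members. In RT112, 3 of 76 passed between siControl.1 and siControl.2 (2.36% of all genes did). RPLP0, the stalk protein that carries RPLP1 and RPLP2 and a common reference gene in quantitative PCR, was at 1618 and 1457 CPM under siControl.1, 724 and 671 under siControl.2, 765 and 605 under siFOXA1.1 and 1379 and 1419 under siFOXA1.2. It was higher under siControl.1 than under siControl.2 by 1.2 ± 0.11 SE, adjusted p = 5.3e-06. Its levels fell into a high pair of siRNAs, siControl.1 and siFOXA1.2, and a low pair, siControl.2 and siFOXA1.1. Its fall under siFOXA1.1 (-0.46 ± 0.10 SE, adjusted p = 0.00115) and its rise under siFOXA1.2 (0.45 ± 0.09 SE, adjusted p = 0.0133) are therefore measured against the mean of controls that themselves differ, and each FOXA1 siRNA overlapped or neared 1 of them. The same high and low pairs appeared in SCaBER, with 1999.8 and 1980.2 CPM under siControl.1, 1103 and 1002 under siControl.2, 1258 and 1065 under siFOXA1.1 and 1805 and 1634 under siFOXA1.2. There the difference between controls of 0.91 ± 0.18 SE, adjusted p = 0.0713 did not pass in the main fit, but it passed with the batch as a block. RPL13 (-0.48 ± 0.11 SE, adjusted p = 0.0261) and RPL7A (-0.41 ± 0.10 SE, adjusted p = 0.0321), both of the large subunit, were lower under siControl.1 in RT112. In SCaBER 0 of 75 members passed between the controls by edgeR (6 at an unadjusted p under 0.05, and 0.0672% of all genes called), against 1 by DESeq2, and the median was -0.12.

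**Figure D3:**
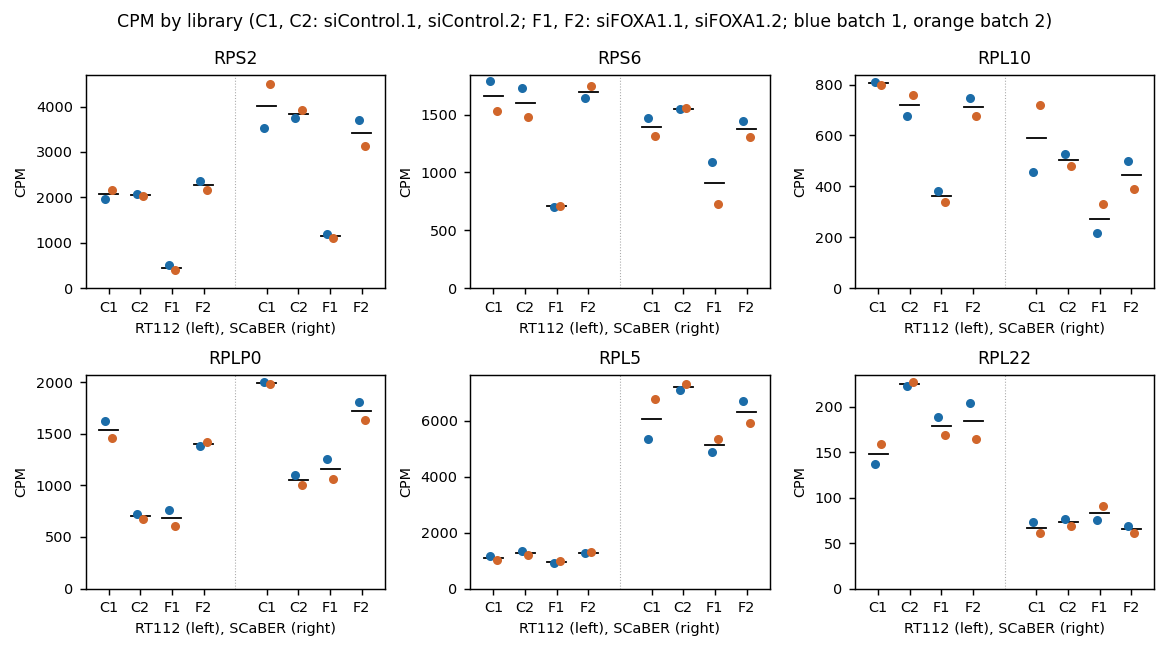
CPM of 6 ribosomal protein genes (y axes, each from 0) by siRNA (x axes) in RT112 (left of the dotted line) and SCaBER (right); points are libraries coloured by batch and bars are means of 2. RPS2, RPS6 and RPL10 are lowest under siFOXA1.1 in both lines, RPLP0 is low under siControl.2 and siFOXA1.1 in both, and RPL5 and RPL22 differ mainly between the lines.

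In SCaBER, 4 of 75 members tested fell under siFOXA1.1, RPS2, RPL10, RPS6 and RPL36, and 0 rose. The count that fell was near the share of all 11902 genes, of which 4.79% fell and 4.47% rose. All 4 had fallen in RT112 too. The median of the members was -0.21 against 0.01 over all genes, 64 lay below 0, and 19 had both siFOXA1.1 libraries below all 4 controls (15.2% of all genes did). Within batch 1 the median was -0.18 and within batch 2 -0.30. RPS2 was at 3519.8 and 4498 CPM under siControl.1, 3751 and 3921 under siControl.2, 3704 and 3133 under siFOXA1.2 and 1187 and 1116 under siFOXA1.1 (-1.73 ± 0.16 SE, adjusted p = 1.93e-05). It gave 16.0% of the difference in share, the next being RPL5 with 8.72%. RPL10 was at 456 and 720.2, 529 and 481 and 216 and 331 CPM under siControl.1, siControl.2 and siFOXA1.1 (-0.97 ± 0.22 SE, adjusted p = 0.0129), and RPL36, a large-subunit protein, at 838 and 797, 953 and 873 and 557 and 539.7 CPM (-0.62 ± 0.15 SE, adjusted p = 0.0204). RPS6, at 1468 and 1311, 1550.3 and 1555 and 1091 and 729.6 CPM (-0.65 ± 0.18 SE, adjusted p = 0.0395), had 1 siFOXA1.1 library well below the other. In all 4 genes both siFOXA1.1 libraries lay below every control.

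The SCaBER counts of calls depended on single libraries and on the batch, and where 1 siFOXA1.1 library is left it is assumed to vary like the other groups. With the batch as a block 9 members fell, among them RPL12, RPS21 and RPL18, and without siControl.2 replicate 1 only RPS2 did. RPS2 passed under every alternative tried, whereas the calls of RPS6, RPL36 and RPL10 were lost in 7, 4 and 3 alternatives. The counts of calls in these alternatives were not set beside the share of all genes. They are not read as a result about the members. Against the controls, RPS6 had a log2 fold change of -0.36 with siFOXA1.1 replicate 1 alone and -1.01 with replicate 2 alone. The SCaBER siFOXA1.1 libraries differed from each other in other members too. RPL30 was at 421 and 1604 CPM, RPS29 at 807 and 1497, RPL13 at 725 and 1366, RPS27A at 4879 and 2730.2 and RPL41 at 598 and 276 in batches 1 and 2, so that the first 3 were higher and the last 2 lower in batch 2. Under siFOXA1.2 0 of 75 members passed by edgeR (3 at an unadjusted p under 0.05, 0 by DESeq2, and 0.042% of all genes called), with a median of -0.07, and both libraries lay below all controls for 9 members, against 7.68% of all genes. Between siFOXA1.1 and siFOXA1.2, RPS2 alone passed (-1.56 ± 0.18 SE, adjusted p = 0.000165, where 2.8% of all genes were lower), joined by RPS6 and RPLP0 with the batch as a block. With both FOXA1 siRNAs pooled 0 of 75 passed by edgeR or DESeq2 (4 at an unadjusted p under 0.05, and 0.0084% of all genes called).

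The changes under siFOXA1.1 were set side by side between the lines, which share no library. Over the 75 members tested in both, Pearson's r was 0.667 and Spearman's rho 0.46, and 57 members lay below 0 in both lines, while over all 10685 genes tested in both r was 0.445 and rho 0.488. For siControl.1 against siControl.2, r over the members was 0.385 and rho 0.134, with 34 below 0 and 12 above 0 in both lines. Over all genes r was then 0.0914 and rho 0.115. Genes are not independent replicates, and the values are given as a description. The test of the difference between the lines called 0 of 76 members by edgeR for siFOXA1.1 (9 at an unadjusted p under 0.05, 1 by DESeq2, and 3.14% of all genes called) and 0 for siFOXA1.2 by edgeR and by DESeq2 (8 at an unadjusted p under 0.05 by edgeR, and 0.0438% of all genes). RPL12, for example, had a difference of -0.69 ± 0.24 (SE, adjusted p = 0.133) between its changes in RT112 and SCaBER. The larger count of calls in RT112 was thus not shown to be a difference between the lines. The siFOXA1.1 count of this test depended on single libraries.

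**Figure D4:**
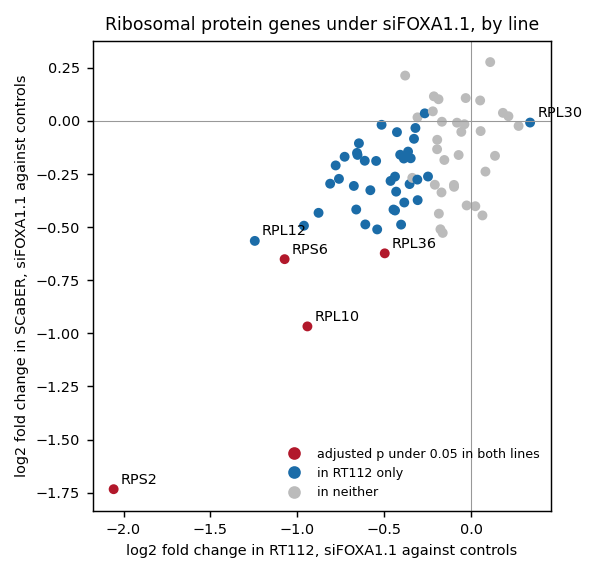
Log2 fold change of the 75 ribosomal protein genes tested in both lines under siFOXA1.1 against both controls, in RT112 (x axis) and SCaBER (y axis); colours give the lines in which the edgeR adjusted p was under 0.05. Most points lie below 0 on both axes, with RPS2 lowest in both.

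Between the lines under control siRNA, the members were more often lower than higher in RT112. Of 76 tested, 32 were lower and 8 higher, against 22.2% and 21.2% of all 12309 genes, and the median was -0.24 against 0.02 over all genes. On the deposited TPM scale the split was 56 lower and 1 higher, with the median of all genes at -0.32 and that of the members at -0.63. The median gene was thus lower in RT112 on this scale too, and the larger count is not read as a result about the members. RPL5 differed most, at 1175 and 1035 CPM under siControl.1 and 1340.0 and 1185 under siControl.2 in RT112, and at 5358 and 6771 and 7092 and 7322 in SCaBER (-2.47 ± 0.12 SE, adjusted p = 7.33e-10). All SCaBER libraries were above all RT112 libraries. RPL11, its partner in the 5S particle, was at 800 to 973 CPM in the RT112 controls and 1134 to 1374 in SCaBER, a smaller step in the same direction (-0.49 ± 0.11 SE, adjusted p = 0.00175). RPS3, which lines the mRNA entry, was at 792 to 1008 CPM against 1904 to 2742 (-1.36 ± 0.13 SE, adjusted p = 8.86e-07), RPLP2 at 902 to 1040.2 against 2394 to 2581 (-1.36 ± 0.10 SE, adjusted p = 6.6e-08), RPL12 at 565 to 684 against 1143 to 1527 (-1.18 ± 0.12 SE, adjusted p = 1.8e-06) and RPL27A at 642 to 836 against 1424 to 1889.6 (-1.17 ± 0.13 SE, adjusted p = 3.21e-06). None of these overlapped between the lines.

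Fewer members were higher in RT112. RPL22 was at 136 and 159 CPM under siControl.1 and 222 and 227 under siControl.2 in RT112 and at 73.0 and 60.8 and 76.8 and 68.9 in SCaBER (1.42 ± 0.17 SE, adjusted p = 1.11e-05), so that the lines did not overlap although the RT112 controls differed from each other. RPL9 (0.75 ± 0.14 SE, adjusted p = 0.00062), RPS25, a protein used in internal initiation (0.65 ± 0.13 SE, adjusted p = 0.000898), and RPS13 (0.49 ± 0.11 SE, adjusted p = 0.00215) were also higher. RPL10 was called higher in RT112, at 677 to 809.8 CPM against 456 to 720.2 in SCaBER (0.49 ± 0.14 SE, adjusted p = 0.0118), a call that turned with its processed pseudogenes. The pseudogenes named after RPL10 summed to 792 ± 109 CPM (SD, n = 4) in SCaBER and 39.0 ± 3.54 in RT112 under control siRNA, most of it from RPL10P9, at 363 to 758 CPM in the SCaBER libraries and 2.64 to 8.15 in those of RT112. With pseudogene counts added to their genes, RPL10 was lower in RT112 (log2 fold change -0.73, adjusted p = 5.01e-05), and on the TPM scale it had 0.11 (limma adjusted p = 0.578). Whether the RPL10P9 counts are its own transcript or reads of RPL10 placed there was not tested. Under siFOXA1.1 in SCaBER, RPL10P9 was at 533 and 363 CPM, below its control libraries at 577 to 758.

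**Figure D5:**
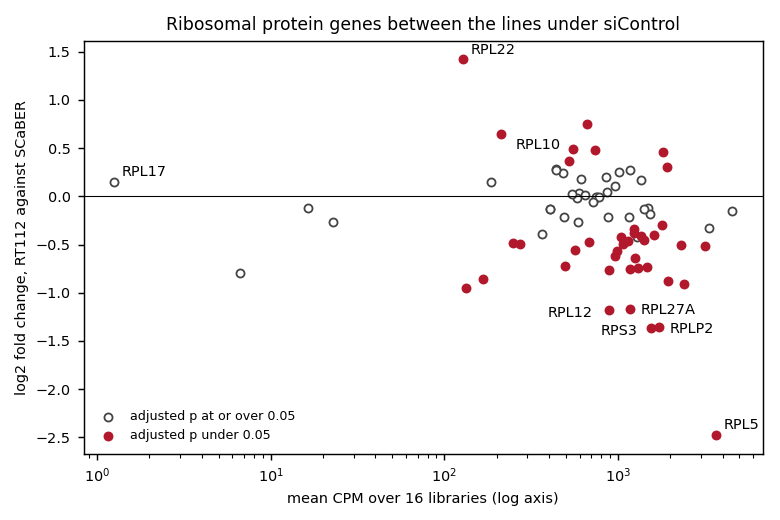
Log2 fold change between the lines under control siRNA (y axis, RT112 against SCaBER) against the mean CPM over 16 libraries (x axis, log scale) for the 76 ribosomal protein genes tested; filled points have an edgeR adjusted p under 0.05. RPL5 lies lowest and RPL22 highest, and the filled points below 0 outnumber those above, 32 to 8.

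Other genes of the pathway moved in both directions, and their counts are to be read against the shares of all genes under siFOXA1.1, 17.0% lower and 15.6% higher in RT112 and 4.79% and 4.47% in SCaBER. Of the ribosome biogenesis factors, in RT112 under siFOXA1.1 17 of 53 fell and 7 rose, the latter near the share of all genes (median -0.24), and in SCaBER 8 fell and 0 rose (median -0.13). Nucleophosmin (NPM1), a nucleolar chaperone of ribosome assembly, was at 804 and 765 CPM under siControl.1, 797 and 783 under siControl.2 and 352 and 331 under siFOXA1.1 in RT112 (-1.07 ± 0.09 SE, adjusted p = 1.56e-07) and fell in SCaBER too (-1.41 ± 0.18 SE, adjusted p = 0.000231). Fibrillarin (FBL), the methyltransferase that modifies ribosomal RNA, fell in RT112 (-1.22 ± 0.15 SE, adjusted p = 7.9e-06) and in SCaBER (-1.03 ± 0.22 SE, adjusted p = 0.00823), and so did NSA2, a factor of large-subunit maturation (-1.92 ± 0.12 SE, adjusted p = 1.28e-09 and -1.64 ± 0.20 SE, adjusted p = 0.000193). Nucleolin (NCL) fell in RT112 (-0.48 ± 0.10 SE, adjusted p = 0.000957) and had -0.52 ± 0.16 SE, adjusted p = 0.0551 in SCaBER. NOP10, a part of the pseudouridylation complex, rose in RT112 (1.22 ± 0.12 SE, adjusted p = 6.86e-07).

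Of the translation factors whose mRNAs also carry TOP tracts, 3 of 14 were lower and 1 higher in RT112 under siFOXA1.1 (median -0.09, against 17.0% and 15.6% of all genes), and 0 of 14 passed in SCaBER. The elongation factors EEF1A1 (-0.21 ± 0.14 SE, adjusted p = 0.289) and EEF2 (0.16 ± 0.08 SE, adjusted p = 0.153) and TPT1 (-0.10 ± 0.08 SE, adjusted p = 0.359) did not pass in RT112, and PABPC1, the cytoplasmic poly(A)-binding protein, fell (-0.64 ± 0.09 SE, adjusted p = 2.45e-05). Of 23 other initiation factors 5 fell and 4 rose in RT112, and of 74 mitochondrial ribosomal proteins 11 fell and 12 rose (median 0.04), close to the 17.0% and 15.6% of all genes. In SCaBER these lists had 1 and 3 lower and 0 and 1 higher. Of 12 RNA polymerase I genes tested in RT112, 1 rose and 0 fell, and of 14 in SCaBER 0 passed. Of 13 growth signalling genes 2 fell and 1 rose in each line under siFOXA1.1. TSC1, an mTOR inhibitor, rose in both (1.80 ± 0.19 SE, adjusted p = 1.39e-06 in RT112 and 1.04 ± 0.25 SE, adjusted p = 0.0181 in SCaBER). EIF4EBP2, a translation repressor that mTOR inactivates, fell in both (-0.78 ± 0.13 SE, adjusted p = 0.000127 and -1.09 ± 0.26 SE, adjusted p = 0.0157), as did its relative EIF4EBP1 in SCaBER (-3.65 ± 0.49 SE, adjusted p = 0.000356). The SCaBER calls of TSC1 and EIF4EBP2 were each lost in 3 alternatives, on the TPM scale, without siControl.2 replicate 1, and without siFOXA1.1 replicate 2 (TSC1) or replicate 1 (EIF4EBP2), with adjusted p up to 0.142 and 0.0778. MYC was at 3.02 to 11.5 CPM in the RT112 controls and 2.05 and 1.92 under siFOXA1.1, a change of -1.47 ± 0.62 SE, adjusted p = 0.0807 that did not pass. FAU and RACK1, ribosomal proteins that the naming rule misses, did not pass against the controls in either line, where FAU had -0.02 ± 0.09 SE, adjusted p = 0.877 in RT112 under siFOXA1.1. Of the 5 ribosomal paralogs tested in RT112 1 rose, RPL36AL, which encodes a near copy of the RPL36A protein, at 191 and 172 CPM under siControl.1, 252 and 279 under siControl.2 and 286 and 281 under siFOXA1.1 (0.50 ± 0.11 SE, adjusted p = 0.00182), and of 6 tested in SCaBER 0 passed. No gene of these 8 lists passed under siFOXA1.2 in either line.

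Between the lines under control siRNA, ribosome biogenesis factors were lower in RT112 for 24 of 52 and higher for 5 (median -0.47), and RNA polymerase I genes lower for 8 of 13 and higher for 2 (median -0.55), against 22.2% of all genes lower and 21.2% higher. The mitochondrial ribosomal proteins split into 8 lower and 10 higher of 74 (median 0.15), initiation factors into 8 lower and 3 higher of 23, TOP translation factors into 3 and 1 of 14, and growth signalling genes into 3 and 2 of 13. The lower counts of the last 2 lists are near the share of all genes. FAU, which encodes the ribosomal protein eS30, was at 1308 and 1165 CPM under siControl.1 and 1176 and 1015 under siControl.2 in RT112 and at 3220.5 and 2871 and 3346 and 3203 in SCaBER (-1.42 ± 0.11 SE, adjusted p = 1.18e-07). Of the paralogs 3 of 6 were lower in RT112. RPL39L, a copy of RPL39 best known from male germ cells, had 0 counts in every RT112 library and 14.9 ± 4.51 CPM (SD, n = 4) in the SCaBER controls, at least 32.8-fold higher than the limit of 0.453 CPM that 3 counts set in the RT112 library of least depth. Under siFOXA1.1 in SCaBER it was at 5.87 and 5.5 CPM.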

How the data were processed

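RNA from 16 libraries (3' mRNA sequencing) was analysed from the deposited tables. Per the labels and the deposited processing configuration, the authors trimmed reads with TrimGalore 0.6.2, aligned them with STAR 2.6.1a to hg38 and assigned them to GENCODE 29 genes; the study's text names an older build. They deposited raw counts per gene and TPM values, which scale counts by gene length and so suit 3' reads less well. Both tables hold 58721 genes, 1 column per library.

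Counts were tested in R 4.3.3 with the quasi-likelihood F test of edgeR 4.0.16 (TMM factors, filterByExpr, 1 mean per siRNA, each line apart; Benjamini-Hochberg adjustment over all genes tested, threshold 0.05). Fold changes are log2, with SE. The line difference used the 8 control libraries and the interaction all 16. CPM is a gene's counts scaled to 1 common library total. Limits that a count of 0 allows use 3 counts and cover counting error only. The fits were tested on simulated data. DESeq2 1.42.0, limma 3.58.1 on log2(TPM + 1), other scalings, no filter, no mitochondrial genes, added pseudogene counts and each library left out in turn were alternatives. Tables were made with Python 3.11.15 and pandas 2.3.3.

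Members and lists were chosen with earlier results of these data known. Named members were a fixed set of known roles, the 5 with the highest mean CPM, and up to 5 rises and 5 falls per comparison with a mean of at least 20 counts; pathway genes were a fixed set and up to 2 rises and 2 falls per list. Genes outside this rule (the members called with a batch block, those that differ between SCaBER siFOXA1.1 libraries, and RPL10P9) were named after their values were seen. Values of some genes are not reported here. The labels tie a replicate number to an experiment batch, so the numbers pair the libraries, and the block is an alternative. Deviations of same-numbered libraries from their siRNA means correlated by -0.0184 to 0.0137 over all genes in RT112 and 0.0187 to 0.2 in SCaBER (6 pairs of siRNAs each).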

Additional observations from a re-analysis of the deposited data

Results flagged for a closer look

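In 4 of 132 groups of 4 libraries, 1 library stood apart from the other 3 by more than Dixon's 95% critical value for the ratio of gap to range, where chance gives about 1 in 20. RPL14 had a ratio of 0.904 in the RT112 controls, at 508 and 518 CPM under siControl.1 and 610.0 and 509 under siControl.2. RPL34 had 0.917 in the SCaBER controls, at 213 and 334 CPM under siControl.1 and 333 and 344 under siControl.2. RPL37A had 0.916 in the SCaBER siFOXA1 libraries, at 5471 and 3565 CPM under siFOXA1.1 and 5471 and 5311 under siFOXA1.2. RPS4X had 0.903 in the same libraries, at 554 and 351 CPM under siFOXA1.1 and 535 and 555 under siFOXA1.2.

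For 3 pathway genes the change under siFOXA1.1 differed between the lines (edgeR interaction, RT112 minus SCaBER). PABPC1 had a difference of -0.57 ± 0.15 (SE, adjusted p = 0.0472), since it fell in RT112 and had -0.08 (adjusted p = 0.79) in SCaBER. EIF3K, a subunit of the initiation factor eIF3, had -1.47 ± 0.37 (adjusted p = 0.0355), and MRPL48, a mitochondrial ribosomal protein, had 1.09 ± 0.26 (adjusted p = 0.0284). These calls were 1 of 14 TOP translation factors, 1 of 23 other initiation factors and 1 of 75 mitochondrial ribosomal proteins, and 3.14% of all genes were called. They were lost in 15 alternatives for PABPC1, 10 for EIF3K and 9 for MRPL48, most of them with 1 library left out, with adjusted p up to 0.225, 0.172 and 0.166. No ribosomal protein gene passed this test by edgeR, with 9 at an unadjusted p under 0.05, 1 called by DESeq2 and 6 by limma on TPM.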

How the results depend on the processing

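The fall of the members in RT112 under siFOXA1.1 kept its count within 1.5 times under every alternative tried, from 37 to 42 with 1 library left out. On library totals alone 54 fell and 0 rose, and by TPM 60 fell and 0 rose, with the median of all genes at -0.14 and -0.29. These larger counts came with a downward shift of the median gene and are not read as a result about the members. Its share of counts against the controls moved to 79.3% without mitochondrial genes and 63.1% by TPM (70.4% to 73.5% with 1 library left out). Under siFOXA1.2 in RT112 DESeq2 called 13 and TPM 0, and 0 to 9 passed with 1 library left out (shares 108% to 112%). Between the RT112 controls DESeq2, library totals and no filter gave 5 and TPM 1, and leaving out a library gave 1 to 5. In SCaBER under siFOXA1.1 library totals gave 7 and the replicate block 9, and leaving out a library 1 to 10 (shares 78.3% to 85.5%, and 90.2% to 99.4% under siFOXA1.2). Between the FOXA1 siRNAs in SCaBER DESeq2 and the block gave 3 and no filter 2, and leaving out a library 1 to 12 (RT112 42 to 54). Between the SCaBER controls DESeq2, no filter and the block gave 1 (0 to 1 with a library left out), and for the pooled siRNAs no filter gave 1. For the siFOXA1.1 interaction DESeq2 gave 1, library totals and no filter 2 and TPM 6 (0 to 14 with a library left out). The line difference gave 35 to 45 with a library left out. Leaving out a library gave 0 in each case for siFOXA1.2 in SCaBER, the siFOXA1.2 interaction and both pooled comparisons. The replicate block moved no other count of members called by over 1.5 times. The line difference of RPL10 turned to -0.73 with pseudogene counts added. Of 127 calls of named genes 74 held under all alternatives and 1 reversed. The counts of calls in these alternatives were not set beside the share of all genes called in the same fits. They show only how the counts moved. The causes were not tested. With 2 libraries per siRNA and line, members with counts near the filter cannot show small changes.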

Other observations

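In SCaBER, replicate 2 of siControl.1 and replicate 2 of siFOXA1.1 shared a profile among the ribosomal protein genes that the other libraries of the line lacked. RPL30 was at 1539 and 1604 CPM in these libraries and at 421 to 950.2 in the other 6. RPS27A was at 2674 and 2730.2 CPM against 3319 to 4879, RPL41 at 284 and 276 against 404 to 598, and RPL37A at 3601 and 3565 against 4456 to 5969. The pseudogenes of the members took 0.192% and 0.163% of counts in these libraries and 0.254% to 0.301% in the other SCaBER libraries. Over the members, the deviations of same-numbered libraries from their siRNA means correlated at 0.851 between siControl.1 and siFOXA1.1 in SCaBER, at -0.154 to 0.234 for the other pairs of siRNAs there, and at 0.364 to 0.893 in RT112. These correlations are across genes, which are not independent replicates.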
